A study of Homo sapiens with 24 samples.

Results

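The genes described here are those of the proteasome, taken by name: every gene whose whole symbol is PSM, a letter from A to G and a number. Of 48 such genes, 41 were measured, among 12109 genes tested on the arrays. A gene counted as measured when a probe with its symbol was detected (detection p-value under 0.05) on each of the 3 arrays of some group. PSMA7, PSMC5, PSMD7 and PSMD13 had no probe with their symbol in the annotation used, and PSMA8, PSMB11 and PSMF1 did not pass the detection filter. Genes whose symbol only begins in the same way (PSMC3IP, PSME3IP1, PSMG3-AS1 and PSMD6-AS2) were left out.

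The proteasome is the large protease that degrades ubiquitin-tagged proteins in the cytosol and nucleus. A barrel, the 20S core, is built of alpha rings (PSMA genes) and catalytic beta rings (PSMB genes) with the help of assembly chaperones (PSMG genes), and a 19S cap of ATPases (PSMC genes) and non-ATPase subunits (PSMD genes) recognises, unfolds and feeds in the substrate. Interferon-gamma exchanges the catalytic subunits PSMB5, PSMB6 and PSMB7 for PSMB8, PSMB9 and PSMB10, which makes the immunoproteasome that supplies peptides for class I antigen presentation, and it also induces PSME1 and PSME2, which form an alternative cap. When proteasome activity falls short, the transcription factor NFE2L1 raises transcription of the subunit genes.

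RNA was measured on Illumina bead arrays in HCC1954 and JIMT1, a pair of established breast cancer cell lines that the study describes as PIK3CA mutant and insensitive to the PI3Kα inhibitor BYL719. Each line received, for 4 h, the vehicle DMSO, BYL719 at 1 µM, the PDK1 inhibitor GSK2334470 at 1 µM, or the combination of both at these doses. The 8 groups held 3 arrays each, labelled as biological replicates, so the p-values measure the spread between those arrays. Each line is a single line with no replicate lines behind the difference between them. The submitters' array numbers run group by group, with all JIMT1 arrays before all HCC1954 arrays. Differences between groups or lines therefore cannot be told apart from effects of this order, and no slide or scan date was given. In these bulk extracts, fewer cells of a kind and less RNA per cell cannot be told apart.

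Array medians ran from 48.5 to 81.9 in raw intensity, and between 41% and 45.2% of probes were detected per array. Epithelial markers were present: 9 of 9 were detected on all arrays of each HCC1954 group and 8 of 9 in JIMT1, where KRT14 was not detected. Among leukocyte markers, PTPRC, CD3E and LYZ were detected on none of the arrays, while CD14 and CD68 were detected in every group. Under the combination CD14 was lower in HCC1954, at -0.93 (adjusted p = 4.2e-04), and 3 of the 9 epithelial markers were higher in JIMT1. Under GSK2334470 PECAM1, an endothelial marker, was lower in JIMT1, at -0.58 (adjusted p = 0.005). The part of these markers in the results was not tested. Levels below are log2 intensities after background correction and quantile normalization, and differences are log2 fold changes from a limma model of the 8 group means, with p-values adjusted over all 12109 genes (Benjamini-Hochberg). A gene passed the test where this adjusted p was under 0.05.

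The upstream sequences of 5 members are shown, each of which holds a marked match and bears on results that follow. PSMD12 and PSMB9 passed the test under the combination, and PSMB9, PSMB10, PSME2 and PSMD3 differed between the lines. PSMB8, PSMA1 and PSMD2 bear on these results too but hold neither marked motif. PSMB4, which holds one, is not shown, and PSMG3 had no upstream sequence. Each sequence is the 250 bases before the annotated start of the gene, 5′ to 3′ on the strand of the gene, from RefSeq (GRCh38.p14). Their positions are PSMD12 chr17:67366578-67366827 on the minus strand, PSMB9 chr6:32853942-32854191 on the plus strand, PSMB10 chr16:67936851-67937100 on the minus strand, PSME2 chr14:24146611-24146860 on the minus strand and PSMD3 chr17:39980557-39980806 on the plus strand. Capitals mark matches to the core of the antioxidant response element, which NFE2L1 and NFE2L2 bind with small MAF proteins (TGACNNNGC, on either strand) and to the core of the interferon-stimulated response element (GAAA, NN, GAAA without gaps).
PSMD12: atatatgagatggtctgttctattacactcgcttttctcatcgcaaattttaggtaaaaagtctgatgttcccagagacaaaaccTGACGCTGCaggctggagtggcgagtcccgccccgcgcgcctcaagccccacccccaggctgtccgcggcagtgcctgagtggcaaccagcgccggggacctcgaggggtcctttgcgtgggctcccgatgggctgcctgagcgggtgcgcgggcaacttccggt
PSMB9: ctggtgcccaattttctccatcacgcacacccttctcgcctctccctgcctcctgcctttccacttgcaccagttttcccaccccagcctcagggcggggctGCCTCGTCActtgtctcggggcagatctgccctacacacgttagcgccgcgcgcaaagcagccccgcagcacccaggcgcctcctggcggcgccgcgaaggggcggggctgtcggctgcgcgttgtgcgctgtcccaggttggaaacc
PSMB10: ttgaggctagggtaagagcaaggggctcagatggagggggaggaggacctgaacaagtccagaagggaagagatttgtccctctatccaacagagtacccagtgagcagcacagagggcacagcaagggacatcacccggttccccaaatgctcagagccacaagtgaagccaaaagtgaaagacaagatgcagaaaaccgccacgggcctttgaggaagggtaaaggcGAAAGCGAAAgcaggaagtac
PSME2: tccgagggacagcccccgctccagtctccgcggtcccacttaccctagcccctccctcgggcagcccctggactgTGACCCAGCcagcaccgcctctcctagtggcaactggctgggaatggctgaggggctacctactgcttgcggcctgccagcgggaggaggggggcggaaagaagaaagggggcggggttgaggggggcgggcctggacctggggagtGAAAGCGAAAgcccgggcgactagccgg
PSMD3: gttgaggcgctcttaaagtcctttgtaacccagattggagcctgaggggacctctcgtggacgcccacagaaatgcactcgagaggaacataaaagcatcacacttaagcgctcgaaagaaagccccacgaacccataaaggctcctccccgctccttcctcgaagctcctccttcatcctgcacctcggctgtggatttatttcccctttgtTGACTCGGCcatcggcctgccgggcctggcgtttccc

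Of the 41 members, 36 had an upstream sequence in the table. The antioxidant response element core was found in 11 of them (30.6%) and in 3013 (11%) of the 27305 promoters of the table searched over the same 250 bases. The 11 members were PSMB3, PSMB9, PSMD3, PSMD5, PSMD9, PSMD12, PSME1, PSME2, PSME4, PSMG1 and PSMG2. The interferon-stimulated response element core was found in 5 members (13.9%, against 3.07% of all promoters), namely PSMA4, PSMB4, PSMB10, PSME2 and PSMG4, and in PSMB10 and PSME2 its first base lay at positions -21 and -28 from the start. The FOXO element TGTTTAC was in 2 (5.56%, against 2.98%), and the CCAAT box in 15 (41.7%, against 33.0%), all searched on both strands. PSMB8 held none of these motifs in this window. A match is a run of letters and was not tested as a binding site.

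Few proteasome genes passed the test under any treatment: PSMG3 was lower under the combination in both lines, PSMD12 was lower in HCC1954, and in JIMT1 PSMB9 was lower and PSMB4 and PSMD2 were higher. The study made these arrays to ask which transcripts change when mTORC1 signalling is suppressed in the treated cells. In HCC1954, BYL719 alone changed 0 of 41 members by limma (4 at an unadjusted p under 0.05), where 1.98% of all genes tested were higher and 1.92% lower. Here and below, these percentages of all genes are at an adjusted p under 0.05. They cannot be set against the unadjusted counts, for which no share of all genes is given. GSK2334470 alone changed 0 (9 unadjusted) in HCC1954, where 0.00826% of all genes were higher and 0% lower. Under the combination 0 members were higher and 2 lower in HCC1954 (6 unadjusted), against 6.95% and 8.3% of all genes. In JIMT1, BYL719 alone changed 0 members (2 unadjusted), against 6.26% of all genes higher and 5.17% lower, and GSK2334470 alone changed 0 (1 unadjusted), against 0.974% and 0.306%. Under the combination 2 were higher and 2 lower in JIMT1 (9 unadjusted), against 12.5% and 8.9% of all genes. A t-test as named in the study's methods, adjusted over all genes, called 0 members in each of these comparisons except the combination in JIMT1, where it called 3 (PSMB3, PSMC4 and PSMD2).

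The members were measured tightly, and their intervals were narrow. Their median SD within a group was 0.10 (log2), against 0.16 over all genes, and the median standard error of a treatment difference was 0.09, against 0.13. Members whose 3 treated arrays lay wholly above or wholly below the 3 DMSO arrays numbered 6 and 3 under BYL719 in HCC1954 (10.6% and 10.3% of all genes), 5 and 4 under GSK2334470 (9.52% and 6.42%), and 1 and 6 under the combination (13.9% and 15%). In JIMT1 they numbered 2 and 3 (13.9% and 14.5%), 1 and 5 (9.62% and 8.8%), and 7 and 10 (21.7% and 17.6%). The median difference of the 41 members lay between -0.03 and 0.02 in all 6 comparisons with DMSO, and that of all genes between -0.00 and 0.02. Every 95% interval of the 41 members lay within a 2-fold change in each of the 6 comparisons. They lay within 1.5-fold for 41 members under BYL719 and 39 under GSK2334470 and under the combination in HCC1954, and for 41, 41 and 37 in JIMT1. The exceptions were PSMC4 and PSMG2 (GSK2334470 in HCC1954), PSMC4 and PSMG3 (combination in HCC1954), and PSMB9, PSMC4, PSMD4 and PSMG3 (combination in JIMT1).

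**Figure D1:**
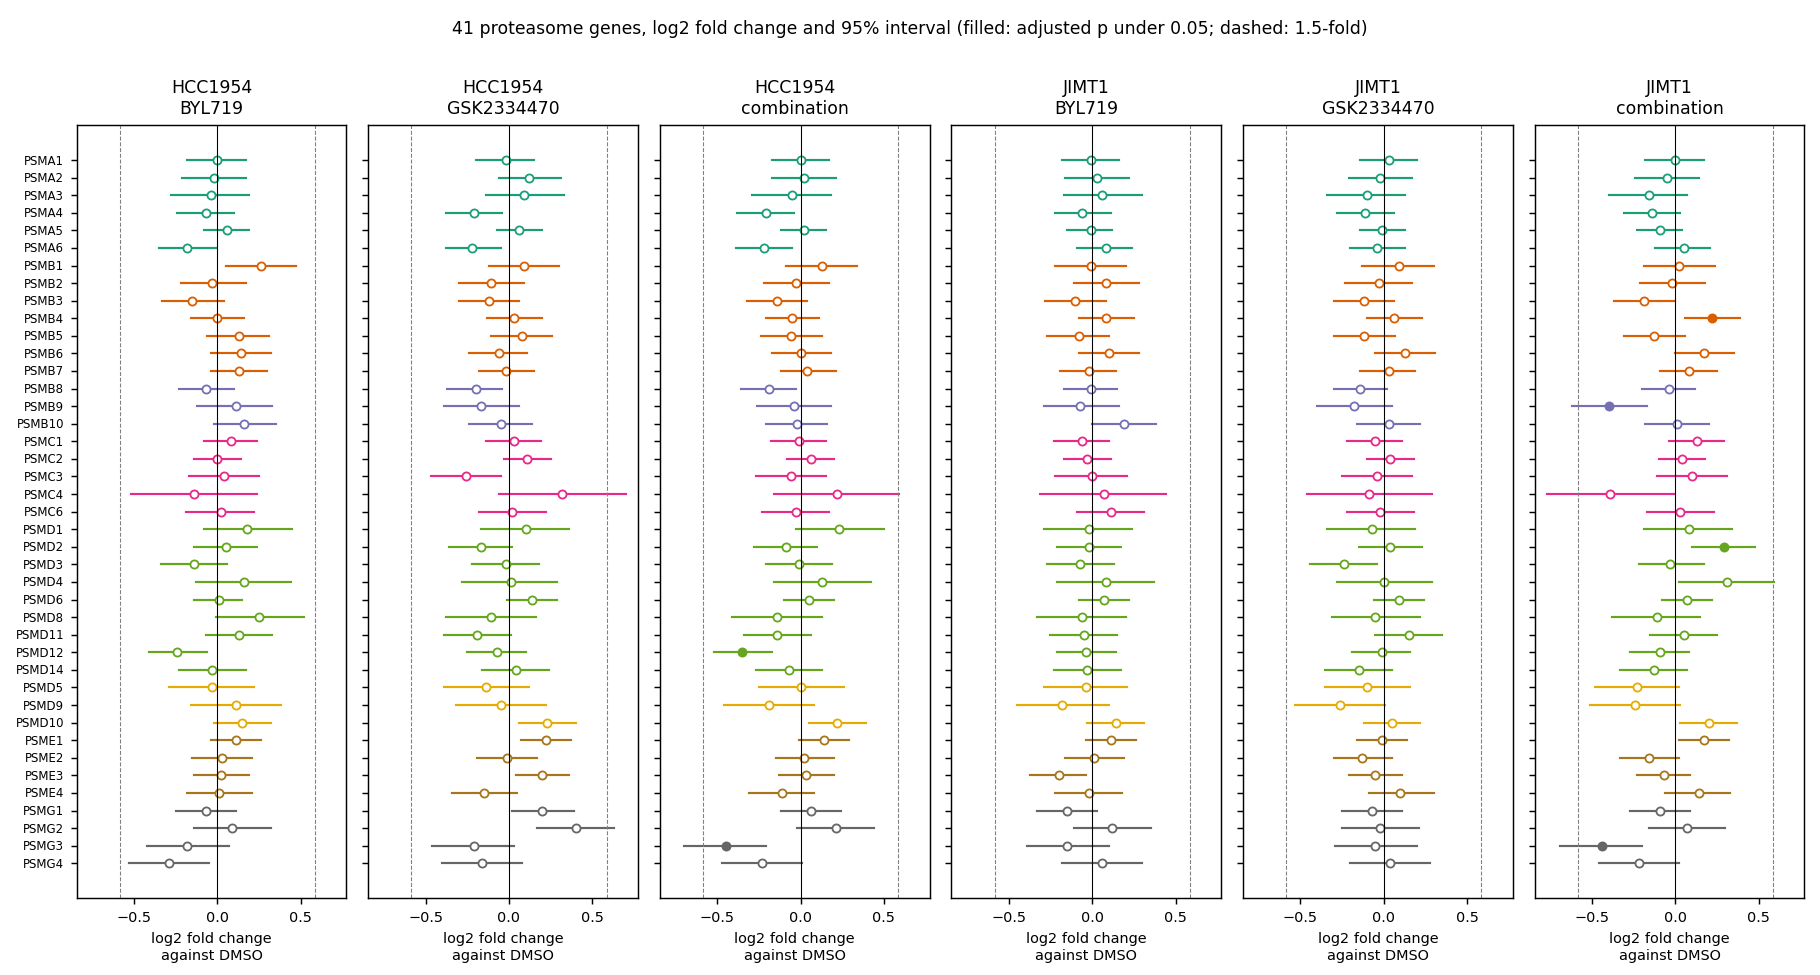
Log2 fold change of the 41 proteasome genes against DMSO (x axis, log2 units) in 6 panels, by line and treatment, ordered and coloured by role. Points are estimates, bars are 95% intervals, filled points passed an adjusted p under 0.05 and dashed lines mark a 1.5-fold change. The points cluster at 0 in every panel, and the 6 filled points all lie in the combination panels.

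PSMG3 was the member that passed the test in both lines. It encodes a chaperone of the PSMG3 and PSMG4 pair, which acts early in building the alpha ring. In HCC1954 its level was 8.92, 8.86 and 9.15 on the 3 DMSO arrays and 8.54, 8.45 and 8.57 on the combination arrays. In JIMT1 it was 8.98, 8.76 and 9.12 under DMSO and 8.52, 8.4 and 8.62 under the combination. All combination arrays were below all DMSO arrays in each line. The single agents gave 9.11, 8.64 and 8.65 (BYL719) and 8.73, 8.82 and 8.73 (GSK2334470) in HCC1954, and 8.91, 8.82 and 8.69 and 8.95, 8.87 and 8.9 in JIMT1, so that only the HCC1954 arrays with GSK2334470 lay wholly below DMSO and the other single-agent groups overlapped it. PSMG3 fell by 0.45 (SE 0.12, adjusted p = 0.011) in HCC1954, and it fell by 0.44 (SE 0.12, adjusted p = 0.0095) in JIMT1 under the combination by limma. The difference between the lines in that effect was -0.01 (SE 0.17, adjusted p = 0.98). Against GSK2334470 alone, the combination lowered PSMG3 by 0.40 in JIMT1 (adjusted p = 0.033, all arrays below), and in HCC1954 the value was -0.24 (adjusted p = 0.24). The call rested on DMSO replicate 3 in each line, the highest of its group: without it the value was -0.37 (adjusted p = 0.064) in HCC1954 and -0.36 (adjusted p = 0.059) in JIMT1.

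Of the other chaperones of the core, none passed in any treatment comparison. PSMG1, which pairs with PSMG2 to assemble the alpha ring, read 11.95, 11.92 and 11.88 under DMSO and 12.1, 11.95 and 11.88 under the combination in HCC1954, and 12.55, 12.62 and 12.59 and then 12.54, 12.49 and 12.44 in JIMT1. PSMG4, the partner of PSMG3, read 10.1, 10.04 and 10.23 and then 9.92, 9.83 and 9.92 in HCC1954, and 10.71, 10.57 and 10.29 and then 10.37, 10.19 and 10.35 in JIMT1. The combination arrays of PSMG4 were below DMSO in HCC1954 and overlapped it in JIMT1, and those of PSMG1 did the opposite. PSMG1 had a value of 0.06 and PSMG4 of -0.23 under the combination in HCC1954, and of -0.09 and -0.22 in JIMT1. PSMG1 was read by a second, dimmer probe whose values under the combination were -0.41 in HCC1954 and -0.30 in JIMT1. The brighter probe of PSMG1 therefore gave values nearer to 0 in both lines than the second probe. PSMG2 read 11.81, 12.01 and 11.75 under DMSO and 12.45, 12.14 and 12.18 under GSK2334470 in HCC1954, with no overlap. Its value of 0.40 was the highest of a member there and did not pass (adjusted p = 0.13).

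PSMD12, a subunit of the 19S lid, was lower under the combination in HCC1954. Its level was 12.24, 12.44 and 12.23 under DMSO, 12.16, 11.97 and 12.06 under BYL719, 12.25, 12.16 and 12.29 under GSK2334470 and 12.05, 11.95 and 11.89 under the combination. The BYL719 and combination arrays lay below all DMSO arrays, and the GSK2334470 arrays overlapped them. PSMD12 fell by 0.35 (SE 0.08, adjusted p = 0.0071) under the combination, and the value under BYL719 alone was -0.24 (adjusted p = 0.13). The combination also lowered it against GSK2334470 alone, by 0.27 (adjusted p = 0.047), but the value against BYL719 alone was -0.11 (adjusted p = 0.64). In JIMT1 its DMSO arrays read 11.78, 11.82 and 12 and its combination arrays 11.81, 11.77 and 11.75, which overlap, with a value of -0.09 (adjusted p = 0.49). The difference between the lines was -0.25 (adjusted p = 0.26). A second probe of PSMD12, near the dim end of the array at a mean of 5.28, gave -0.02 under the combination in HCC1954.

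In JIMT1 the combination lowered PSMB9, the inducible subunit that replaces PSMB6. The 3 DMSO arrays read 8.76, 8.62 and 8.49 and the 3 combination arrays 8.31, 8.09 and 8.29, while the BYL719 arrays read 8.66, 8.42 and 8.59 and the GSK2334470 arrays 8.28, 8.55 and 8.51. The combination arrays were all below DMSO, and the arrays with either single agent overlapped it. PSMB9 fell by 0.40 (SE 0.11, adjusted p = 0.011). Its second, dimmer probe gave 0.13 in that comparison, and the mean of both probes was -0.13 (adjusted p = 0.38). Without DMSO replicate 1 or without combination replicate 2 the value was -0.33 (adjusted p = 0.063 in both). In HCC1954 the PSMB9 value under the combination was -0.04, with DMSO arrays at 10.03, 9.88 and 10.16 and combination arrays at 9.97, 9.81 and 10.18. The other inducible subunits, PSMB8 and PSMB10, had values of -0.04 and 0.01 in JIMT1 under the combination. PSMB8 has 4 probes, and the mean over them was -0.35 in that comparison (adjusted p = 0.014), since the 2 dimmest gave -0.47 and -0.84.

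PSMB4 and PSMD2 rose under the combination in JIMT1. PSMB4, a beta subunit without catalytic activity, read 12.48, 12.37 and 12.37 under DMSO and 12.65, 12.54 and 12.7 under the combination, a rise of 0.22 (SE 0.08, adjusted p = 0.045). PSMD2, the large scaffold subunit of the 19S base that binds ubiquitin shuttle proteins, read 12.62, 12.61 and 12.71 under DMSO and 12.92, 12.96 and 12.92 under the combination, a rise of 0.29 (SE 0.09, adjusted p = 0.028). The groups did not overlap for either gene, and both lie close to the threshold. The PSMB4 call was lost without DMSO replicate 2 or 3 or combination replicate 1 or 3 (0.19 to 0.21, adjusted p 0.11 to 0.15), and the PSMD2 call without DMSO replicate 1 or 2 or any 1 of the combination arrays (0.27 to 0.29, adjusted p 0.058 to 0.085). In HCC1954 the values were -0.05 for PSMB4 and -0.09 for PSMD2. With median scaling in place of quantile normalization, PSMG3 in HCC1954 passed, and the other calls under the combination did not: PSMD12 in HCC1954 was -0.45 (adjusted p = 0.16), and in JIMT1 PSMG3 was -0.41 (0.22), PSMB9 -0.35 (0.19), PSMB4 0.19 (0.55) and PSMD2 0.25 (0.42).

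**Figure D2:**
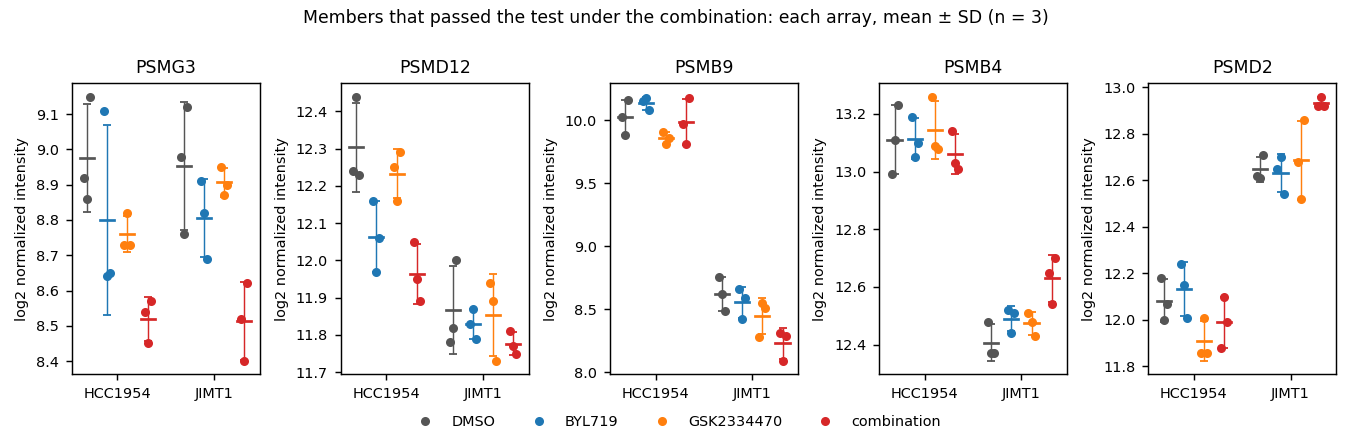
Log2 normalized intensity (y axis) of PSMG3, PSMD12, PSMB9, PSMB4 and PSMD2 on each of the 24 arrays, grouped by line and coloured by treatment, with the mean as a line and the SD of 3 arrays as a bar. PSMG3 combination arrays lie between 8.4 and 8.62 in both lines, below every DMSO array, whereas PSMB9, PSMB4 and PSMD2 are separated mainly by line.

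The combination effect was compared directly between the lines, and 0 of 41 members differed by limma (6 at an unadjusted p under 0.05), where 1.44% of all genes were higher and 3.05% lower in HCC1954. PSMC4, an ATPase of the 19S base, had the widest gap. Its DMSO arrays read 9.83, 10.25 and 9.83 and its combination arrays 10.62, 9.89 and 10.05 in HCC1954, where they overlap. In JIMT1 the DMSO arrays read 10.63, 10.43 and 10.54 and the combination arrays 10.21, 10.12 and 10.1, which are all lower. The values were 0.22 (adjusted p = 0.49) and -0.39 (adjusted p = 0.14), and their difference was 0.61 (SE 0.26, adjusted p = 0.21). The 3 probes of PSMC4 gave 0.22 to 0.38 in HCC1954 and -0.39 to -0.21 in JIMT1. PSMD4, a ubiquitin receptor of the cap, gave 0.30 to 0.31 on its 3 probes under the combination in JIMT1, and did not pass (adjusted p = 0.12).

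Against BYL719 alone, the combination changed 0 members in either line (6 unadjusted in each), where 1.41% of all genes were higher and 1.31% lower in HCC1954, and 0.768% and 0.421% in JIMT1. Against GSK2334470 alone, it lowered 1 member in each line, PSMD12 in HCC1954 (5.3% of all genes lower and 3.67% higher) and PSMG3 in JIMT1 (4.48% and 6.67%). The departure from the sum of both single-agent effects passed for 0 members in either line (1 unadjusted in HCC1954 and 2 in JIMT1), against 0.00826% of all genes higher and 0.0248% lower in HCC1954 and 0.0165% each way in JIMT1. The lines did not pass the test of a difference for any member under BYL719 alone (2 unadjusted, with 0.471% of all genes higher in HCC1954 and 0.842% lower) or GSK2334470 alone (5 unadjusted, with 0.0661% and 0.116%).

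Several known regulators of the proteasome genes passed the test where most subunits did not. Of 6 measured regulators, NFE2L1, NFE2L2, MAFF and KEAP1 rose under the combination in JIMT1, and NFE2L1, NFE2L2 and MAFF rose while NGLY1 fell in HCC1954. NFE2L1 encodes the factor that activates the subunit genes, NFE2L2 its relative in the oxidative stress response, KEAP1 the adaptor that targets NFE2L2 for degradation, MAFF a small partner protein, and NGLY1 the enzyme that removes sugars from the NFE2L1 protein. Of all genes, 12.5% were higher and 8.9% lower in JIMT1 under the combination, and 6.95% and 8.3% in HCC1954. The median over the 6 was 0.44 in JIMT1 and 0.21 in HCC1954, against 0.02 and -0.00 over all genes. The list was chosen with earlier results of these data known, so these counts and medians are descriptive only. MAFF rose by 1.16 in HCC1954 (SE 0.21, adjusted p = 5.8e-04). In JIMT1 it rose by 0.61 (SE 0.21, adjusted p = 0.045), and that call was lost without DMSO replicate 2 or 3 or combination replicate 2 or 3 (0.47 to 0.57, adjusted p 0.11 to 0.18). NGLY1 fell by 0.29 in HCC1954 (adjusted p = 0.046), and leaving out any 1 of the DMSO and combination arrays other than DMSO replicate 3 lost the call (-0.21 to -0.31, adjusted p 0.073 to 0.21). KEAP1 rose by 0.35 in JIMT1 (adjusted p = 0.0071; with median scaling 0.38, 0.22). It also rose there by 0.29 under BYL719 (adjusted p = 0.041), a call lost in 11 of 15 alternatives, among them leaving out any 1 of the DMSO arrays or BYL719 replicate 1 or 3 (0.22 to 0.31, adjusted p 0.058 to 0.2).

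NFE2L2 in JIMT1 read 10.29, 10.36 and 10.39 under DMSO, 10.74, 10.77 and 10.77 under BYL719, 10.65, 10.63 and 10.54 under GSK2334470 and 11.08, 10.98 and 11.04 under the combination. No pair of the 4 groups overlapped, with GSK2334470 between DMSO and BYL719. It rose by 0.41 under BYL719 (adjusted p = 0.0098) and by 0.68 under the combination (SE 0.10, adjusted p = 4.9e-05). In HCC1954 the same probe read 11.12, 11.33 and 11.03 under DMSO and 11.67, 11.43 and 11.48 under the combination, a rise of 0.37 (SE 0.10, adjusted p = 0.016) with no overlap. That call was lost without DMSO replicate 1 (0.35, adjusted p = 0.058), DMSO replicate 3 (0.30, 0.082) or combination replicate 1 (0.29, 0.091), and with median scaling (0.21, 0.62).

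NFE2L1 in JIMT1 read 9.38, 9.31 and 9.2 under DMSO, 9.73, 9.6 and 9.66 under BYL719 and 9.76, 9.9 and 9.78 under the combination. Both of these treated groups lay above DMSO, with rises of 0.37 (adjusted p = 0.008) and 0.52 (SE 0.09, adjusted p = 2.0e-04). The GSK2334470 arrays, at 9.26, 9.29 and 9.48, overlapped DMSO. In HCC1954 it read 9.22, 8.99 and 9.3 under DMSO and 9.45, 9.55 and 9.41 under the combination, a rise of 0.30 (SE 0.09, adjusted p = 0.025). Without DMSO replicate 2, the lowest of them, it was 0.20 (adjusted p = 0.13), and without combination replicate 1 or 2 it was 0.31 (0.052) or 0.26 (0.1). With median scaling in place of quantile normalization it was 0.12 (0.72). The rises of NFE2L1 and NFE2L2 in JIMT1 under the combination passed in all 15 alternatives tried.

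Of 11 measured partners of the proteasome without a PSM symbol, ZFAND5 rose under BYL719 and under the combination in both lines. Its product binds the 26S proteasome and raises its activity, as known from mouse. ZFAND5 read 12.86, 12.95 and 12.82 under DMSO in HCC1954, 13.22, 13.28 and 13.4 under BYL719, 13.06, 13.08 and 13.01 under GSK2334470 and 13.5, 13.55 and 13.62 under the combination. In JIMT1 the values were 12.45, 12.54 and 12.48, then 12.92, 12.82 and 12.93, then 12.66, 12.74 and 12.63, and 13.27, 13.23 and 13.34 in the same order. In both lines the 4 groups were ordered DMSO, GSK2334470, BYL719, combination with no overlap between any of them. The rise was 0.42 (adjusted p = 0.0013) and 0.68 (adjusted p = 8.1e-07) in HCC1954, and 0.40 (adjusted p = 6.1e-04) and 0.79 (adjusted p = 7.7e-08) in JIMT1, for BYL719 and the combination. The value under GSK2334470 was 0.18 and 0.19 and did not pass (adjusted p = 0.26 and 0.25). With median scaling the rises under BYL719 alone were 0.38 (0.46) and 0.35 (0.33) and did not pass, while those under the combination did. TXNL1, a thioredoxin-like protein bound to the cap, fell by 0.60 under the combination in JIMT1 (SE 0.19, adjusted p = 0.029), and without combination replicate 3 the value was -0.26 (0.2). It was also lost without DMSO replicate 1 (-0.56, 0.086) or 2 (-0.59, 0.073). The other 9 partners, among them USP14, UCHL5 and POMP, did not pass in a comparison with DMSO, and ADRM1 was lower under the combination than under GSK2334470 alone in HCC1954.

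**Figure D3:**
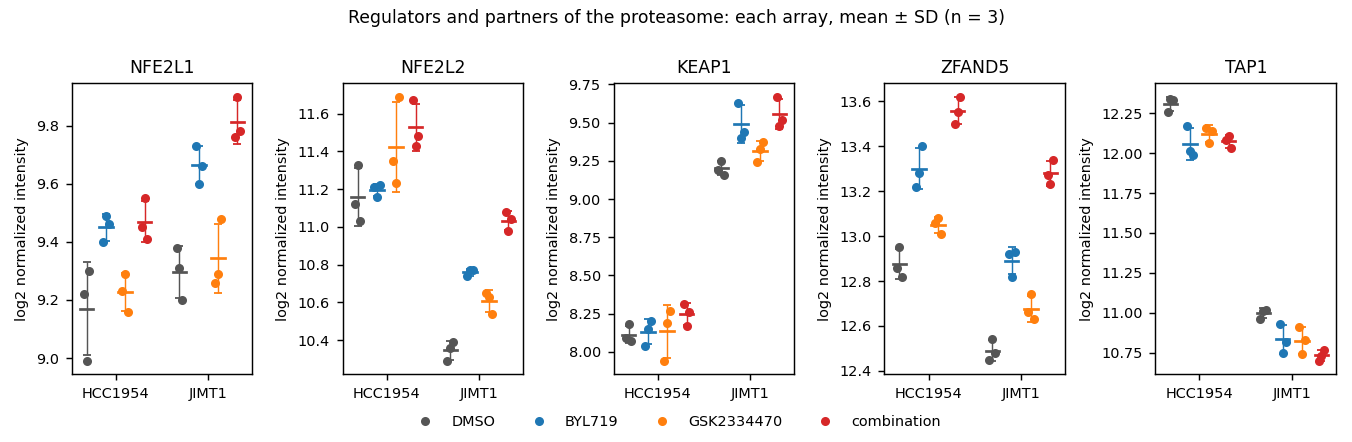
Log2 normalized intensity (y axis) of NFE2L1, NFE2L2, KEAP1, ZFAND5 and TAP1 on each of the 24 arrays, grouped by line and coloured by treatment, with the mean as a line and the SD of 3 arrays as a bar. ZFAND5 rises from DMSO (12.45 to 12.54 in JIMT1, 12.82 to 12.95 in HCC1954) through both single agents to the combination (13.23 to 13.34 and 13.5 to 13.62).

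Among 11 measured genes of ubiquitin supply and shuttling, UBQLN2, a shuttle factor, fell by 0.29 in HCC1954 under the combination (adjusted p = 0.019), and the call was lost without DMSO replicate 1 or 2 or combination replicate 1 (-0.25 to -0.28, adjusted p 0.056 to 0.074). In JIMT1 UBA1, the main ubiquitin-activating enzyme, rose by 0.23 (adjusted p = 0.031) and UBA6, the second such enzyme, fell by 0.52 (adjusted p = 0.016). The UBA1 call was lost without any 1 of the DMSO arrays or combination replicate 2 or 3 (0.21 to 0.24, adjusted p 0.059 to 0.098), and its mean over probes was 0.02, while UBA6 was -0.49 without DMSO replicate 1 (0.054) and -0.25 without combination replicate 3 (0.099). The other 10 and 9 genes of this group did not pass. Among 9 measured genes of the interferon response and class I presentation, TAP1, a subunit of the peptide transporter, fell under the combination in both lines. TAP1 arrays read 12.26, 12.34 and 12.33 under DMSO and 12.08, 12.11 and 12.03 under the combination in HCC1954, and 10.96, 11.01 and 11.02 and then 10.7, 10.73 and 10.77 in JIMT1. The groups did not overlap in either line. TAP1 fell by 0.24 (adjusted p = 0.029) in the first line and by 0.27 (SE 0.07, adjusted p = 0.011) in the second. The HCC1954 call was lost without DMSO replicate 2 or 3 or combination replicate 1 or 3 (-0.21 to -0.24, adjusted p 0.062 to 0.1). IRF1, the transcription factor that drives PSMB9 and TAP1 in the interferon response, rose in JIMT1 by 0.45 under BYL719 (adjusted p = 2.9e-04) and by 0.40 under the combination (adjusted p = 4.8e-04). Its value in HCC1954 under the combination was 0.07 (adjusted p = 0.59). HLA-E, a class I molecule, rose by 0.32 in JIMT1 under the combination (adjusted p = 0.0067). With median scaling the calls of TAP1, IRF1 and HLA-E under the combination were lost, with TAP1 at -0.35 (0.24) in HCC1954 and -0.27 (0.39) in JIMT1, IRF1 at 0.42 (0.14) and HLA-E at 0.33 (0.25).

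The lines differed far more than the treatments. Under DMSO 15 of 41 members were higher and 16 lower in HCC1954 than in JIMT1, which is 36.6% and 39% of the members, against 34.4% and 35.4% of all genes tested, and the shares are close to those of all genes. The median over the members was 0.02 and over all genes -0.00. Over the 3 DMSO arrays, 17 members lay wholly above and 16 wholly below in HCC1954 (34.9% and 36.3% of all genes). Over all 12 arrays of a line, whatever the treatment, 12 members were wholly above (22.5% of all genes) and 10 wholly below (23.4%) in HCC1954.

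All 3 inducible catalytic subunits were higher in HCC1954, where 34.4% of all genes were higher. PSMB8, which replaces PSMB5, read 12.13, 11.96 and 12.01 in HCC1954 and 10.33, 10.32 and 10.27 in JIMT1 under DMSO, a 3.32-fold difference (log2 1.73, SE 0.08, adjusted p = 3.2e-14). PSMB9 read 10.03, 9.88 and 10.16 against 8.76, 8.62 and 8.49, a 2.64-fold difference (1.40, SE 0.11, adjusted p = 2.3e-10). PSMB10, which replaces PSMB7, read 13.04, 12.79 and 13.01 against 11.51, 11.55 and 11.71, a 2.57-fold difference (1.36, SE 0.09, adjusted p = 2.2e-11). For each of the 3 genes the lowest of the 12 HCC1954 arrays stood above the highest of the 12 JIMT1 arrays. The second PSMB9 probe gave 1.03, and 3 of the 4 PSMB8 probes gave 1.64 to 1.73, while the fourth, dim at a mean of 6.05, gave -0.29.

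The constitutive counterparts did not share a direction. PSMB5 read 12.52, 12.55 and 12.38 in HCC1954 and 12.05, 12.08 and 12 in JIMT1 under DMSO. PSMB6 read 13.55, 13.43 and 13.45 against 13.34, 13.41 and 13.56, and PSMB7 13.13, 12.96 and 13.02 against 13.32, 13.4 and 13.47. The lines overlapped for PSMB6 and were apart for PSMB5 and PSMB7. PSMB5 was higher in HCC1954 by 0.44 (SE 0.09, adjusted p = 1.7e-04), PSMB6 had a value of 0.04 (SE 0.08, adjusted p = 0.69), and PSMB7 was lower, at -0.36 (SE 0.08, adjusted p = 4.5e-04). The difference of an inducible and its constitutive subunit, taken within each array so that array-wide scaling cancels, was higher in HCC1954 by 1.29 (SE 0.07) for PSMB8 and PSMB5, 1.36 (SE 0.16) for PSMB9 and PSMB6, and 1.72 (SE 0.06) for PSMB10 and PSMB7. The 12 arrays of each line did not overlap in any of the 3 differences.

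Of the 4 activator subunits measured, 3 were higher in HCC1954, where 34.4% of all genes were higher and 35.4% lower. PSME2 read 13.16, 13.11 and 13.04 in HCC1954 and 12.32, 12.43 and 12.34 in JIMT1, and PSME1 read 13.23, 13.29 and 13.25 against 12.76, 12.8 and 12.72. Both were higher on every HCC1954 array. The differences were 0.74 (SE 0.08, adjusted p = 1.2e-07) and 0.50 (SE 0.07, adjusted p = 3.0e-06). PSME4, which caps the core in the nucleus, was higher by 0.26 (adjusted p = 0.017; without HCC1954 DMSO replicate 1 it was 0.21, 0.084), and PSME3, the nuclear relative of PSME1 that interferon does not induce, had a value of -0.17 (adjusted p = 0.057; without HCC1954 DMSO replicate 2 it was -0.26, 0.0039). With median scaling in place of quantile normalization, PSME1 (0.36, adjusted p = 0.05) and PSME4 no longer passed. Among the 9 interferon and class I genes, 7 were higher and 2 lower in HCC1954, beside the same shares of all genes. TAP1 was higher by 1.31 (adjusted p = 9.3e-13), IRF1 by 1.02 (adjusted p = 7.9e-11) and B2M, the class I light chain, by 0.76 (adjusted p = 2.6e-07). The group's exceptions were HLA-C, at -0.54 (adjusted p = 9.7e-04), and TAP2, at -0.48 (adjusted p = 4.2e-05), which turned to 0.17 with the mean of its probes.

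Most non-ATPase subunits of the 19S cap were lower, where 35.4% of all genes were lower and 34.4% higher. The subunits of the cap were not tested as a group. Of 9 measured non-ATPase subunits, 6 were lower in HCC1954 (PSMD1, PSMD2, PSMD3, PSMD6, PSMD8 and PSMD11), 2 were higher (PSMD4 and PSMD12) and PSMD14, the deubiquitinase of the lid, did not pass (0.21, adjusted p = 0.056; without HCC1954 DMSO replicate 3 it was 0.29, 0.02). The cap chaperones PSMD5 and PSMD9 were lower, by -0.70 and -0.90, and PSMD10 was not called. Of 5 ATPases, PSMC1 was higher by 0.66, PSMC3 and PSMC4 were lower at -0.67 and -0.56, and PSMC2 and PSMC6 did not pass. The opposite sign of PSMD12 rests on its bright probe, since the dim one gave -0.87. With median scaling PSMD11 and PSMD12 no longer passed.

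PSMD3, a lid subunit, had the largest difference of any member. Its level was 8.53, 8.36 and 8.69 in HCC1954 and 11.51, 11.42 and 11.33 in JIMT1 under DMSO. Over all treatments it stayed between 8.31 and 8.69 in HCC1954 and between 11.03 and 11.57 in JIMT1, with a wide gap between the lines. The HCC1954 level was 0.134 times that of JIMT1 (log2 -2.90, SE 0.10, adjusted p = 1.8e-16). PSMA1, an alpha ring subunit, read 12.68, 12.64 and 12.75 against 13.99, 14.11 and 14.06, and its level in HCC1954 was 0.388 times that in JIMT1 (log2 -1.36, SE 0.08, adjusted p = 4.6e-12). A second PSMA1 probe gave -2.30.

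The rest of the core was mixed. Beside the counts that follow, 34.4% of all genes were higher in HCC1954 and 35.4% lower. In the alpha ring PSMA5 and PSMA6 were higher (0.47 and 0.69), PSMA1, PSMA2 and PSMA4 lower (-1.36, -0.80 and -0.20), and PSMA3 did not pass. Without HCC1954 DMSO replicate 3, PSMA4 was -0.15 (adjusted p = 0.14) and PSMA3 0.26 (0.044), and without JIMT1 DMSO replicate 3 PSMA4 was -0.16 (0.12). In the constitutive beta ring PSMB2, PSMB3, PSMB4 and PSMB5 were higher by 0.33 to 0.70 and PSMB7 was lower, while PSMB1 and PSMB6 did not pass. Under median scaling PSMA4, PSMA5, PSMB2, PSMB3 and PSMB5 did not pass either. Of the 4 core chaperones, PSMG1 and PSMG4 were lower (-0.67 and -0.40) and PSMG2 and PSMG3 had values of -0.10 and 0.02. Of 11 partners, 3 were higher and 5 lower in HCC1954. ADRM1, a ubiquitin receptor of the cap, read 12.15, 12.24 and 12.09 against 13.46, 13.37 and 13.38, a difference of -1.24 (adjusted p = 6.7e-12), and USP14, the deubiquitinase bound to PSMD2, differed by -1.44 (adjusted p = 3.5e-07). The other partners that passed were UCHL5, ZFAND5 and AKIRIN2, which were higher, and POMP, PAAF1 and UBE3C, which were lower. Of 6 regulators, NFE2L2 was higher (0.81, adjusted p = 4.0e-07), KEAP1 (-1.09, adjusted p = 6.9e-10), MAFF, MAFG and NGLY1 were lower, and NFE2L1 did not pass (-0.12, adjusted p = 0.23). MAFF turned to 0.07 with the mean of its probes. Of 11 genes of ubiquitin supply and shuttling, 3 were higher and 6 lower, and of these UBQLN1 turned to 0.05 with the mean of its probes.

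**Figure D4:**
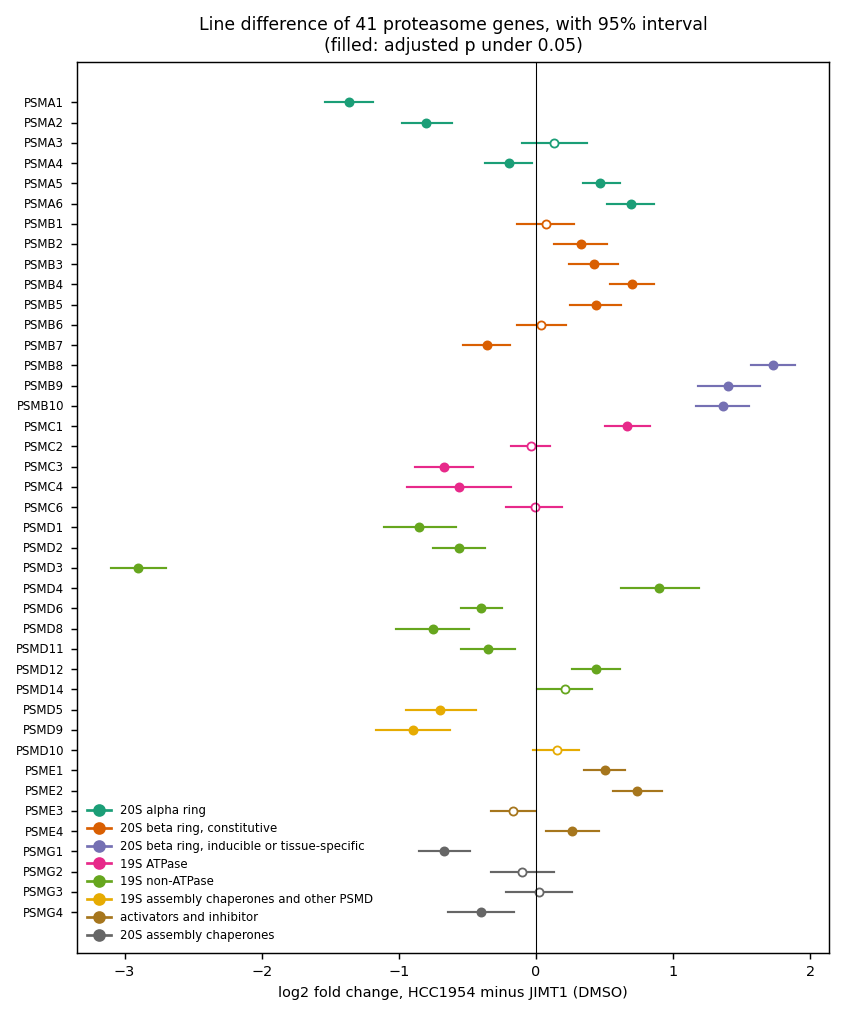
Log2 fold change of the 41 proteasome genes between the lines under DMSO (x axis, HCC1954 minus JIMT1), coloured by role, with 95% intervals. Filled points passed an adjusted p under 0.05. PSMB8, PSMB9 and PSMB10 lie at 1.36 to 1.73 to the right, PSMD3 alone lies at -2.90, and most non-ATPase subunits of the cap lie left of 0.

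The neighbours of these genes on the chromosome were set beside them, as the 4 nearest measured genes on each side in the RefSeq order of GRCh38.p14. Beside PSMD3, MED24 was also lower in HCC1954, at -2.28 (adjusted p = 2.4e-14), while GSDMB and ORMDL3 on its other side were higher, at 3.38 (adjusted p = 1.4e-13) and 2.93 (adjusted p = 4.0e-15). The dim neighbours GSDMA, on the side of ORMDL3, and THRA, next to MED24, were lower too. Beyond THRA, MSL1 and CASC3 were higher. Beside PSMA1, COPB1, RRAS2 and FAR1 were lower on one side, at -1.08, -2.25 and -4.22, and CYP2R1 on the other, at -0.97, whereas C11orf58, PLEKHA7 and RPS13 further on were higher. PSMB8 and PSMB9 flank TAP1 in the class II region of the MHC, and 7 of the 8 neighbours of each were higher in HCC1954, among them HLA-DMA (1.22), with TAP2 lower. These sets share most of their genes, and PSMB8 and PSMB9 are each counted as a neighbour of the other. All 8 neighbours of PSMB4 and all 8 of PSMD12 were higher in HCC1954, as were 7 of 8 for PSMB10, and 0 of 8 for PSMD2, of which 6 were lower. PSMG1 stood against its neighbours: itself lower, it had 5 neighbours higher and 1 lower. Those of PSMG4 are left out, because the coordinates used placed HLA-DRB3 and HLA-DRB4 of the MHC among them. Of all genes, 34.4% were higher and 35.4% lower. Neighbours were not tested as a group. DNA copy number was not analysed here, and its part in these differences was not tested.

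**Figure D5:**
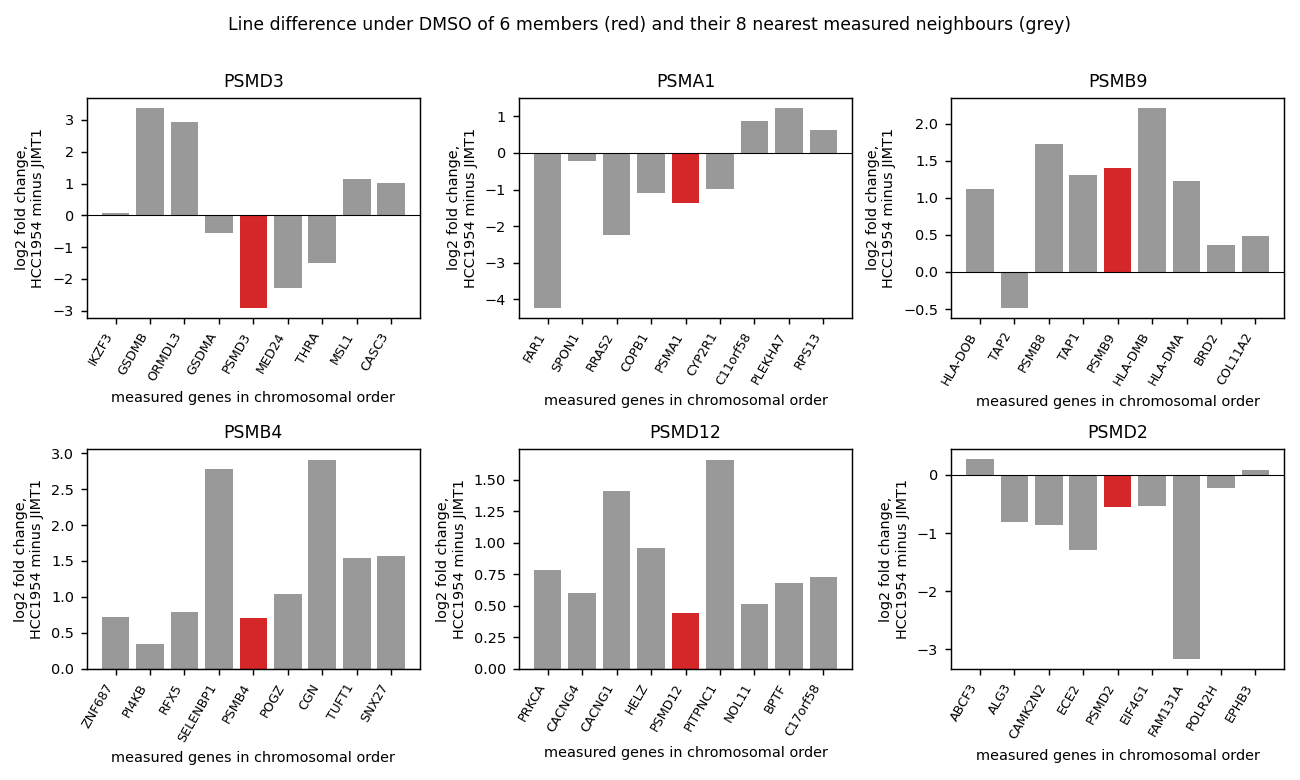
Log2 fold change between the lines under DMSO (y axis, HCC1954 minus JIMT1) of 6 proteasome genes (red) and the 4 nearest measured genes on each side (grey), in chromosomal order and not to scale in distance. Bars have no error, and those of dim neighbours depend on the background correction. PSMD3 and MED24 (-2.28) point down, with GSDMB and ORMDL3 (3.38 and 2.93) up on one side and MSL1 and CASC3 (1.15 and 1.01) up on the other, and all bars beside PSMB4 and PSMD12 point up.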

How the data were processed

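The authors deposited mean bead intensity per probe and array, neither background-subtracted nor normalized, beside a detection p-value and the count of beads behind each value (median of an array, 17 to 20). GenomeStudio is named in the submitters' processing notes, with no version. They also deposited processed intensities, made in a way not given in the sources used here, which served as an alternative. Bead standard errors (24 columns) were left out.

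In R 4.3.3 with limma 3.58.1, neqc corrected background from the detection p-values (offset 16) and quantile-normalized the 24 arrays. Of 47323 probes, 21256 were detected on each array of some group. Each gene took its brightest probe with 1 symbol, which left 12109 genes. One model of the 8 group means (lmFit, eBayes, 16 residual and 3.98 prior degrees of freedom) gave 16 contrasts, adjusted by Benjamini-Hochberg, at a threshold of 0.05. The offset understates changes of dim genes. The number of arrays limits the precision.

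Values per array are given for up to 4 members with the smallest adjusted p among those passing in each treatment comparison, the inducible and constitutive catalytic subunits, PSME1, PSME2, the PSMG genes and the 5 largest line differences. Genes of the other lists are given by counts, and not all that passed are named. PSMC4 and PSMD4, and the array values of list genes, were chosen after their values were seen. The members and gene lists were chosen with earlier results of these data known. The procedure was tested on simulated data. Some marker and motif results are not reported here.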

Additional observations from a re-analysis of the deposited data

How the results depend on the processing

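Alternatives were median scaling, no background correction, the authors' processed values, no filter, probes detected on all 24 arrays, the mean of a gene's probes, only the arrays of a line, a replicate block, the methods' t-test, and leaving out each array. Those for genes of the other lists were chosen after seeing the data. The counts of members called under BYL719 alone, under GSK2334470 alone and for the line difference in the combination effect were 0 under each of them that gave a value (the t-test was not run on the last). For the combination in HCC1954, the count of 2 became 1 with median scaling (PSMG3), 1 with the mean of probes (PSMG3) and 0 with the t-test, and 1 to 3 when 1 array was left out. For the combination in JIMT1, the count of 4 became 0 with median scaling and 2 to 3 when 1 array was left out. Between the lines, 31 became 30 to 32 when 1 array was left out, and 22 (8 higher, 14 lower) with median scaling, beside 15 higher and 16 lower. The share of all genes called with median scaling is not given here, so its counts cannot be read as particular to the members. Median scaling moved the median of all genes to -0.12 for the combination and 0.11 for GSK2334470 in HCC1954, and to -0.18 for the line difference in the combination effect. PSME1 and PSMB5 then missed the threshold between the lines (adjusted p = 0.05 and 0.077). The causes were not tested.

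With the mean of a gene's probes, the line difference reversed for PSMD12 (-0.22), MAFF (0.07), UBQLN1 (0.05) and TAP2 (0.17). Each of the 6 calls under the combination kept its sign in all 15 alternatives. For the named members, 1690 alternatives gave the same result. There, a value that had passed kept its sign and passed again. One that had not passed stayed within 1 SD and still did not pass, whatever its sign. Of values that had not passed, 45 moved by over 1 SD, some of them across 0, and 1 passed. Of values that had passed, 31 missed the threshold and 1 reversed. For the list genes, 676 held, 115 missed and 3 reversed.

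Replicate numbers are shared between groups, but deviations of same-numbered DMSO and treated arrays correlated at only -0.21 to 0.07. No shared replicate effect was seen, which does not settle whether same-numbered arrays were prepared together. With the replicate block the counts were 2, 4 and 31, as without it. Of the list genes, NGLY1 in HCC1954 under the combination then missed the threshold (-0.29, adjusted p = 0.054), as did KEAP1 in JIMT1 under BYL719.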
